A study of Mus musculus with 4 samples.

Results

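A630019I02Rik and Cmya5 are a noncoding and a protein-coding mouse gene whose exons lie on opposite strands of the same stretch of chromosome 13. They were chosen by name, with their counts in these libraries already known, from the rows of the count tables that map to either symbol. They are 2 of the 25044 genes counted, and each is a single transcript row. The values that led to the choice are the counts of A630019I02Rik described below, so its differences between libraries are a description and carry no test.

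The study sequenced whole-heart RNA of 12-week-old mice, with 1 library for each of 4 groups and the RNA source of every library labelled as 3 combined hearts. One pair of groups, with the strain label C57BL/6, consists of cMyBP-CΔC10mut mice (dC10mut), a hypertrophic cardiomyopathy model that carries a MYBPC3 transgene with a 25-bp variant, and nontransgenic mice (NTG). The other pair, with the strain label FvB/N, consists of cMyBP-C(t/t) mice (tt), a dilated cardiomyopathy model, and control mice (control). The promoter of the transgene and the sex of the mice are not given in the sources used here. With 1 pooled library per group, no difference below has a replicate check, and every interval covers counting error only.

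Cmya5 encodes myospryn, a very large protein of striated muscle. It has a C-terminal domain arrangement like that of tripartite motif proteins and has been reported to bind desmin, titin, alpha-actinin and dysbindin and to anchor protein kinase A. In mouse heart muscle cells it is known to hold the junctional sarcoplasmic reticulum, with its ryanodine receptors, next to the Z-line. The gene is a known target of the muscle transcription factor MEF2A. No function is known with certainty for A630019I02Rik, which is annotated as an antisense RNA.

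In GENCODE release M21 (GRCm38, the assembly also called mm10), Cmya5 lies on the minus strand at chr13:93040713-93144724 and has 13 exons with 11850 bases in all. A630019I02Rik lies on the plus strand at chr13:93094833-93098968, inside the Cmya5 gene, and has 4 exons with 2990 bases. Exon 2 of Cmya5 is 9310 bases long and entirely coding. Exons 1, 2 and 3 of A630019I02Rik (331, 26 and 197 bases) lie wholly opposite it, and so do 1897 of the 2436 bases of exon 4. In all, 2451 bases are shared, which is 82% of the exon bases of A630019I02Rik and 20.7% of those of Cmya5, and the whole shared stretch codes for myospryn. The remaining 539 exon bases of A630019I02Rik face the intron between exons 1 and 2 of Cmya5.

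**Figure D1:**
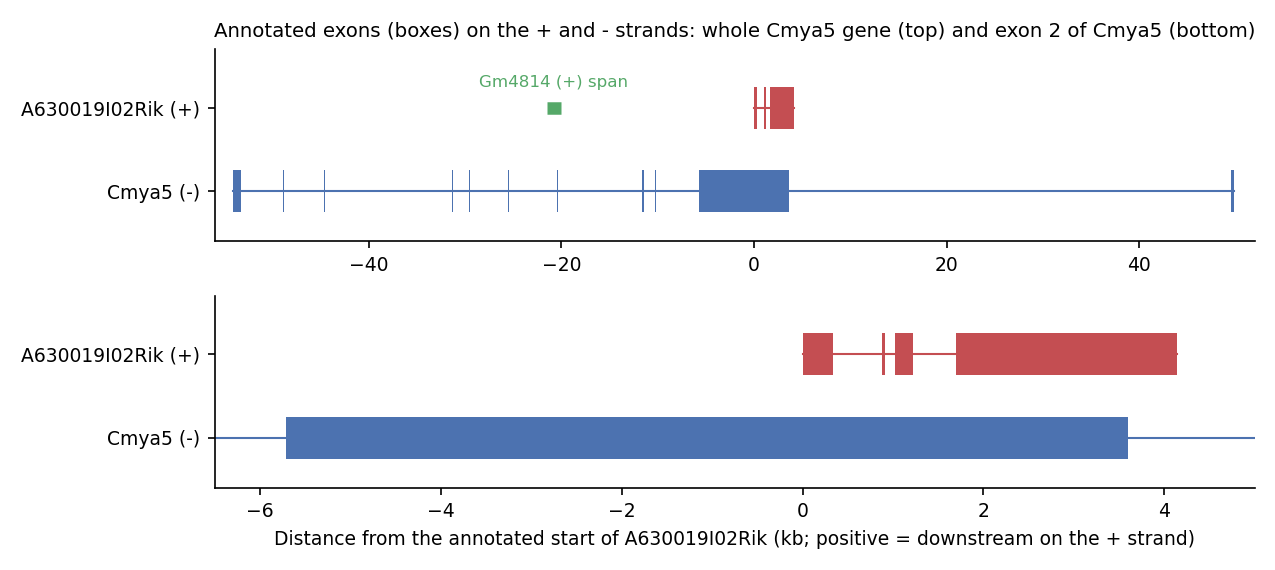
Annotated exons of A630019I02Rik (red, plus strand) and Cmya5 (blue, minus strand) by distance in kb from the start of A630019I02Rik, with the whole Cmya5 gene above and its exon 2 below. The noncoding gene sits over the 9310-base exon 2 of Cmya5, with only the end of its exon 4 beyond it; the green box is the span of Gm4814, which faces exon 6.

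The splice junction of exons 3 and 4 is shown here because reads across it could tell the noncoding RNA from that of Cmya5. The line below gives the spliced RNA from 5′ to 3′, read from the GENCODE transcripts, with the start of exon 4 in capitals.
A630019I02Rik junction of exons 3 and 4: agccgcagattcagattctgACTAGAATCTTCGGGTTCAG
This junction is not found in the reverse complement of the Cmya5 transcript. Of the 2960 windows of 31 bases in the A630019I02Rik transcript, 2340 have their reverse complement in Cmya5 and 620 do not. None occurs on either strand of a GENCODE M21 transcript of any other gene. Of the 11820 such windows of Cmya5, 91 also occur, as reverse complement, in Gm4814, a noncoding gene described below. The deposited counts are per transcript, so they do not show where along a transcript the reads fell or whether they crossed a splice junction.

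The annotated start of A630019I02Rik also lies inside myospryn coding sequence. The promoter windows from RefSeq (GRCm38.p6, 250 bases before to 50 after the start) are shown because the levels of the 2 genes are compared across libraries below. Capitals mark matches, on either strand, to any of the motifs searched.
A630019I02Rik, chr13:93094583-93094882, plus strand: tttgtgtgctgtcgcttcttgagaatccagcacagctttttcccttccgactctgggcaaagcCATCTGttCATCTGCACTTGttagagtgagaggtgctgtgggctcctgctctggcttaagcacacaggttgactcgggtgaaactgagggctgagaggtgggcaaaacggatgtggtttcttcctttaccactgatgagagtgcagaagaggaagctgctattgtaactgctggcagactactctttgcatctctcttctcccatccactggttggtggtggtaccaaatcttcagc
Cmya5, chr13:93144675-93144974, minus strand: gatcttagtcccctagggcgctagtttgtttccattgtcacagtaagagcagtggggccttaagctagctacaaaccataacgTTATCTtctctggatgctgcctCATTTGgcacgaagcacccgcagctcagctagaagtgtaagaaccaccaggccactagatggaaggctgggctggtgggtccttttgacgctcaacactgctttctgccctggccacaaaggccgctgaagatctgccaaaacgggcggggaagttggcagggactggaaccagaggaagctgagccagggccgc
All 300 bases of the A630019I02Rik window lie in exon 2 of Cmya5. The motifs searched on both strands were the letters CTATTT for part of a MEF2 factor site, CANNTG for the E-box bound by basic helix-loop-helix factors, AGATAA for a GATA factor site and TATAAA for the TATA box. The A630019I02Rik window held 3 E-boxes, of which the third begins right after the second, and none of the others. The Cmya5 window held 1 E-box and 1 GATA site. An E-box occurs in 72.3% of the 32851 promoter windows of the table, the GATA letters in 11.2%, the MEF2 letters in 12.1% and the TATA letters in 13.6%. The GC content was 50.7% in the A630019I02Rik window and 55.3% in the Cmya5 window, beside a median of 52.7% over the table.

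Total counts were between 170543 and 187365 per library, which is shallow: a single count equals 5.34 to 5.86 CPM, the count scaled to a common library total. The kit keeps the strand of the RNA, but whether the counting used it is not given in the sources used here, and the labelled tissue shows unevenly in the rows. Of 12 markers of heart muscle cells, 5 stayed under 10 counts in all 4 libraries, among them Myh6, the main myosin heavy chain of the adult mouse heart, with 1 count in tt and 0 elsewhere, and Tnnt2, cardiac troponin T, with 0 throughout. Myl2, a ventricular myosin light chain, held 2405 to 3520 counts, and the 4 blood and 4 fat cell markers held 0. The level of a gene also went with its number of transcript rows. Of the 6 heart muscle markers with 1 row all reached 10 counts in a library, against 1 of the 6 with 2 or more rows. Over all genes this held for 13.1% of 17144 genes with 1 row and 2.81% of 7900 genes with 2 or more. A630019I02Rik and Cmya5 have 1 row each, so a low count of a gene with several rows cannot be set beside theirs as a lower level. Genes with an exon opposite another gene held between 67.8% and 71.7% of the counts of a library. In noncoding and coding genes that face each other and together held at least 50 counts, the noncoding row was the higher in 103 of 114 pairs in dC10mut, 108 of 118 in NTG, 112 of 124 in tt and 101 of 115 in control. Whether the reads counted for A630019I02Rik came from its own strand or from that of Cmya5 was not tested, and the values below are those of the deposited rows.

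A630019I02Rik was abundant and differed widely between libraries. It held 654 counts in dC10mut, against 244 in NTG. It held 1273 counts in tt, against 70 in control. Both model libraries were thus above the NTG and control libraries, and the lowest and highest of the 4 were the libraries of the tt pair. Scaled with TMM factors (trimmed mean of M-values), these counts were 3492 CPM (95% Poisson interval 3230 to 3771) in dC10mut, against 1521 CPM (1336 to 1725) in NTG. In the other pair they were 6610 CPM (6252 to 6983) in tt, against 385 CPM (300 to 486) in control. By counts the row ranked 15 among 6985 genes with a count in tt, against 395 among 6989 in control.

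The tt library held 17.1-fold more of A630019I02Rik than control (log2 ratio 4.09, 95% interval of the counting error 3.75 to 4.47). In the other pair dC10mut held 2.29-fold more than NTG (log2 ratio 1.20, 0.98 to 1.42). A gene is said to be called here when its ratio is at least 2-fold and its interval excludes equality, and A630019I02Rik was called higher in both pairs. This held for 2.70% of 8248 genes in the tt pair and for 1.81% of 8033 genes in the dC10mut pair, and nothing is read from its being among them, since the gene was chosen for it. Among genes with at least 50 counts in a library of the pair it had the third highest ratio of 587 in tt over control and ranked 9 of 573 in dC10mut over NTG. The difference between the 2 log2 ratios, tt over control less dC10mut over NTG, was 2.90 (SE of the counting error 0.21, 95% interval 2.49 to 3.30).

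The control and NTG libraries also lay apart. With 70 counts in control and 244 in NTG, A630019I02Rik was 3.93-fold lower in control (log2 ratio -1.97, -2.39 to -1.59), and 1.69% of 8152 genes were called lower in that comparison. These libraries differ in strain label, and control is the denominator of the 17.1-fold ratio. Set against NTG in place of its own control, tt was 4.34-fold higher (log2 ratio 2.12, 1.92 to 2.32). The order from low to high was control, NTG, dC10mut and tt, and every neighbouring step exceeded the counting error, with tt 1.89-fold above dC10mut (log2 ratio 0.92, 0.78 to 1.06). Between the lowest and highest library the gene spanned 4.09 on the log2 scale, which ranked 4 among 902 genes with at least 100 counts over the 4 libraries, whose median span was 0.72.

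**Figure D2:**
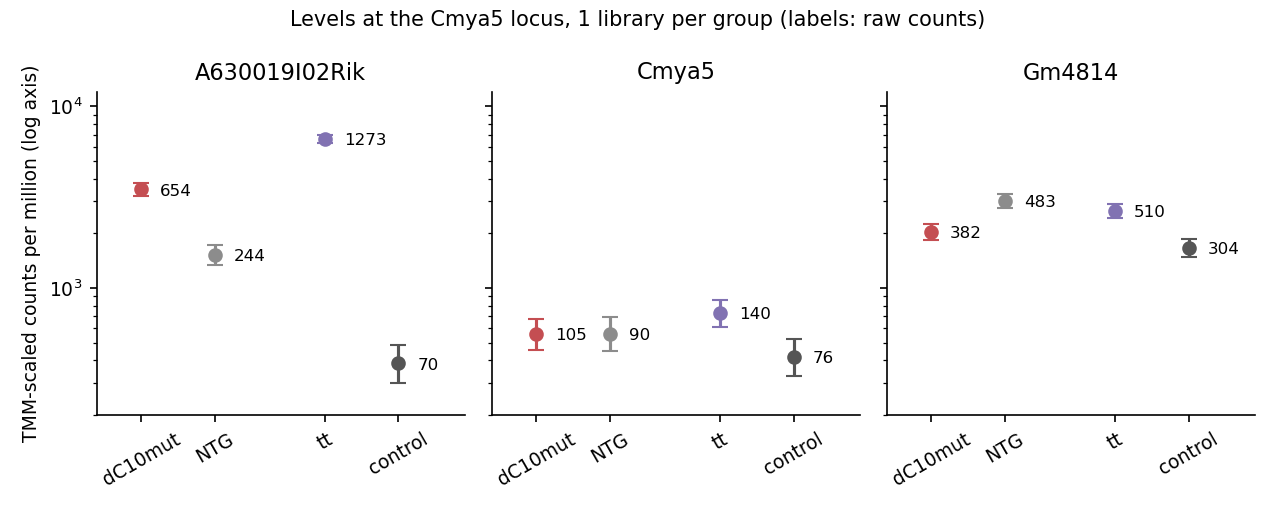
TMM-scaled counts (CPM, log axis) for A630019I02Rik, Cmya5 and Gm4814 in the 4 libraries, with raw counts beside each point and 95% Poisson intervals as bars (1 library per group). A630019I02Rik reaches 6610 CPM in tt, against 385 CPM in control, while Cmya5 stays between 418 and 727 CPM and Gm4814 between 1671 and 3011 CPM.

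Cmya5 itself differed less. It held 105 counts in dC10mut, against 90 in NTG, and 140 in tt, against 76 in control. The scaled levels were 561 CPM in dC10mut (459 to 679) and 561 CPM in NTG (451 to 690), so these 2 libraries were level. They were 727 CPM in tt (612 to 858), against 418 CPM in control (329 to 523), and these intervals do not overlap. The log2 ratio was 0.00 (-0.42 to 0.42) in dC10mut over NTG and 0.80 (0.39 to 1.22) in tt over control, a 1.74-fold difference that excludes equality but stays under 2-fold. In control over NTG it was -0.42 (-0.89 to 0.03). From low to high the order was control, then NTG and dC10mut, then tt, and with this scaling no neighbouring step exceeded the counting error. With TMM factors from genes without an opposite-strand exon, control over NTG was -0.52 (-0.98 to -0.06), which excludes equality. The span over the 4 libraries, 0.79 on the log2 scale, ranked 398 of 902 genes. The difference between the pairs' log2 ratios was 0.80 (SE 0.29, 0.22 to 1.37).

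Per length, the noncoding row stood above the coding one in every library. A630019I02Rik had 1168 CPM per kb of exon in dC10mut and 509 in NTG, beside 47.3 in dC10mut and 47.4 in NTG for Cmya5. It had 2211 CPM per kb in tt and 129 in control, beside 61.3 in tt and 35.3 in control for Cmya5. The per-length level of A630019I02Rik was thus 24.7 times that of Cmya5 in dC10mut and 10.7 times in NTG, and 36.0 times in tt against 3.65 times in control. These lengths take all exon bases, 2990 for A630019I02Rik and 11850 for Cmya5. Outside the shared stretch the lengths are 539 and 9399 bases. Whether the shared bases could receive counts is not known, so the sizes of these ratios depend on that choice.

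The split of counts between the opposite rows needs no scaling between libraries. A630019I02Rik held 86.2% of the counts of both rows in dC10mut (654 of 759, exact Clopper-Pearson interval 83.5% to 88.5%), against 73.1% in NTG (244 of 334, 68.0% to 77.7%). It held 90.1% in tt (1273 of 1413, 88.4% to 91.6%), against 47.9% in control (70 of 146, 39.6% to 56.4%). The intervals do not overlap within either pair. In control alone the coding row was the larger, with 76 counts against 70, and the interval there includes an equal split. As an odds ratio, the balance of A630019I02Rik to Cmya5 was 9.85 times higher in tt than in control (6.70 to 14.5) and 2.30 times higher in dC10mut than in NTG (1.65 to 3.19). It was 0.341 times in control that in NTG (0.222 to 0.520). The 2 rows therefore did not keep a fixed ratio from library to library.

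**Figure D3:**
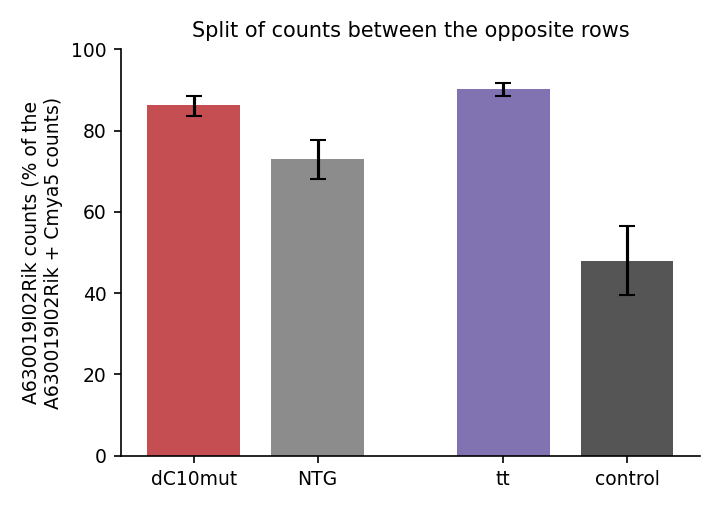
Counts of A630019I02Rik as a percentage of the counts of A630019I02Rik and Cmya5 together in each library, with exact 95% binomial intervals. The share is 86.2% in dC10mut and 73.1% in NTG, and 90.1% in tt and 47.9% in control.

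A second noncoding gene faces Cmya5. Gm4814, annotated as antisense on the plus strand at chr13:93073304-93074757, has 3 exons with 964 bases, of which 119 lie opposite the coding exon 6 of Cmya5. It held 382 counts in dC10mut, against 483 in NTG, and 510 in tt, against 304 in control. It was thus lower in dC10mut than in NTG (log2 ratio -0.56, -0.76 to -0.37) and higher in tt than in control (0.66, 0.46 to 0.87), under 2-fold in both. Its ratio in tt over control lay close to that of Cmya5: the odds ratio of Cmya5 to Gm4814 was 1.10 (0.795 to 1.52). The same odds ratio for A630019I02Rik to Gm4814 was 10.8 (8.15 to 14.5). In dC10mut over NTG the odds ratios to Gm4814 were 1.47 (1.07 to 2.04) for Cmya5 and 3.39 (2.76 to 4.16) for A630019I02Rik. Of the 3 rows at this locus, A630019I02Rik alone differed by 2-fold or more within a pair.

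The surrounding region held few counts. Of 9 other genes within 500 kb, 5 had a count, and besides Gm4814 only Jmy, a regulator of actin and p53 activity, reached 10 counts in a library (10 in dC10mut and 2 in NTG, 5 in tt and 7 in control). Tent2, the next gene beyond the start of Cmya5, and Homer1, a synaptic and muscle scaffold gene, were at 0 in all 4 libraries. Since rows of abundant heart genes were also at 0, a row at 0 gives no upper limit for the RNA of its gene.

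**Figure D4:**
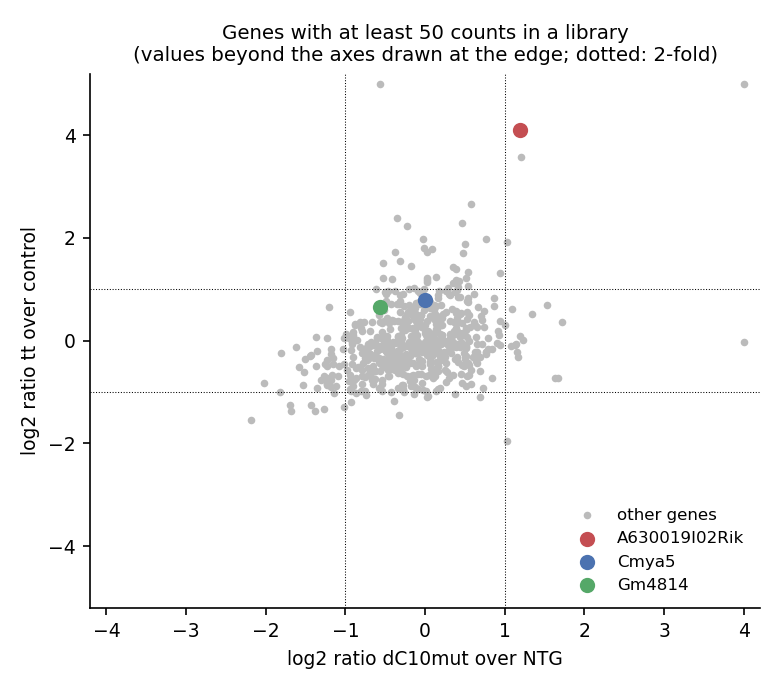
Log2 ratios of dC10mut over NTG (horizontal) and tt over control (vertical) for the 633 genes with at least 50 counts in a library; dotted lines mark 2-fold. A630019I02Rik lies at 1.20 and 4.09, away from the bulk of genes, while Cmya5 lies at 0.00 and 0.80 and Gm4814 at -0.56 and 0.66.

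Other genes were ranked by how close their centred log2 levels over the 4 libraries lay to those of each member, as a Euclidean distance among 901 genes with at least 100 counts. Closest to A630019I02Rik was Pcdhga12, a clustered protocadherin, at a distance of 0.38. Pcdhga12 held 33 counts in dC10mut and 12 in NTG, and 56 in tt and 4 in control. Next were noncoding rows that face a coding gene. Gm15350 (distance 1.14), opposite the phospholipid flippase gene Atp11a, held 54 counts in dC10mut and 31 in NTG, and 97 in tt and 14 in control. 5330439B14Rik, opposite the ATP-sensitive potassium channel subunit gene Abcc9, lay at 1.57. E130215H24Rik, opposite the acetate-activating enzyme gene Acss1, lay at 1.62. Cmya5 ranked 91 in this order at 2.53, so 90 genes resembled A630019I02Rik more than its opposite gene did.

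The 5 genes closest to Cmya5 are listed with the coding gene opposite each. They were Tsr1, a ribosome assembly gene opposite Srr (distance 0.04), Vps4a, of endosomal sorting, opposite Pdf (0.10), Ppifos, opposite the mitochondrial cyclophilin gene Ppif (0.14), Acss2os, opposite Acss2 (0.14), and Rmi1, of DNA repair, opposite Hnrnpk (0.15). Tsr1 held 314 counts in dC10mut and 265 in NTG, and 412 in tt and 219 in control. Its log2 ratio of 0.83 in tt over control lay beside 0.80 for Cmya5. These distances rest on 4 libraries and describe them only. How many of the 901 ranked genes face a coding gene was not counted, so nothing is read from this layout for either member. Genes with an exon opposite another gene held between 67.8% and 71.7% of the counts of a library.

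Rows laid out like A630019I02Rik, that is noncoding with an exon opposite a coding exon, numbered 367 with a count in the tt pair. Of these 44 were called higher in tt and 7 lower, which is 13.9% called, beside 4.28% of all genes. In the dC10mut pair 6 of 364 were called higher and 22 lower (7.69%, beside 4.33% of all genes), and in control over NTG 4 of 367 were called higher and 21 lower (6.81%, beside 3.09%). Most genes held under 10 counts in both libraries of a pair, where few were called. Among genes with at least 10 counts in a library of the pair, 25.1% of 195 such rows were called in tt over control, beside 12.8% of all 2253 genes, 13.7% of 197 in dC10mut over NTG, beside 13.1% of 2114, and 11.5% of 182 in control over NTG, beside 8.41% of 2069. Among these the share in dC10mut over NTG was close to that of all genes. With library totals in place of TMM factors the calls over all genes in control over NTG shifted to 155 higher and 84 lower, against 114 higher and 138 lower with TMM. The median log2 ratio of these rows was 0.25 in tt over control, beside -0.05 over all genes, and -0.15 in dC10mut over NTG, beside -0.11. A630019I02Rik stood at the upper end among the 96 of them with at least 50 counts in the tt pair, of which the next highest was Gm15350 at 2.67 (1.89 to 3.63). Behind it came 5330439B14Rik at 2.29, Gm19461, opposite Plekha6, at 2.24, and Gm16982, opposite the endocytic adaptor gene Ap2a2, at 1.97. The rows of the coding partners Atp11a, Abcc9, Plekha6 and Ap2a2 held 1 count or none in each library. Of the partners named above, Acss1 held 35 counts in dC10mut and 29 in NTG, and 54 in tt and 30 in control.

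In the 5 other pairs with the most counts, the noncoding row was the larger in 4. A930016O22Rik held 7139 counts in dC10mut and 7272 in NTG, and 5781 in tt and 6674 in control, while the row of Ckm, the muscle creatine kinase gene that it faces, held 432 in dC10mut and 342 in NTG, and 290 in tt and 309 in control. Gm15441 held 1601 counts in dC10mut and 1907 in NTG, and 2375 in tt and 1685 in control, with 0 throughout for its partner Txnip, a regulator of glucose uptake. 9130221H12Rik, opposite the kinase gene Gsk3a, held 576 to 663 counts over the 4 libraries. Mir3082, at 0 in all libraries, faces Jmjd8 with 1690 to 2012. Mhrt, which faces the beta myosin heavy chain gene Myh7, was the one noncoding row of these 5 that differed by 2-fold or more within a pair, with a log2 ratio of 1.67 (1.60 to 1.75) in dC10mut over NTG and of -0.72 (-0.90 to -0.55) in tt over control. The row of Myh7 held 11 counts in dC10mut and 27 in NTG, and 20 in tt and 20 in control.

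In 35 pairs both rows reached 20 counts in a library. The log2 ratio of A630019I02Rik in tt over control exceeded that of Cmya5 by 3.30, the widest gap in that direction, ahead of 1700086O06Rik and Dele1 at 2.18. The median gap was -0.08. In dC10mut over NTG its gap of 1.20 was second to that of Mhrt and Myh7 at 3.15, with a median of -0.20.

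**Figure D5:**
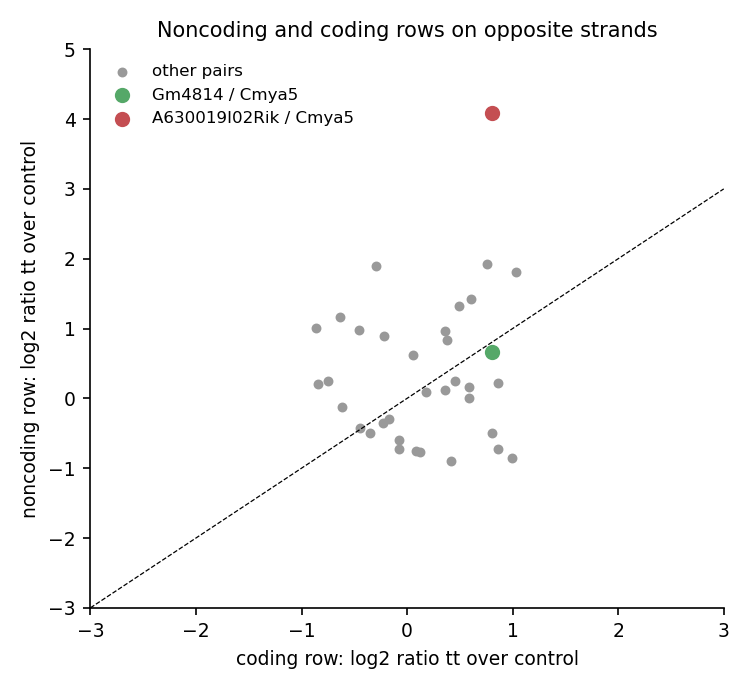
Log2 ratio of tt over control of the noncoding row (vertical) against that of the coding row on the opposite strand (horizontal) for the 35 pairs in which both reached 20 counts; the dashed line marks equal ratios. A630019I02Rik and Cmya5 lie 3.30 above the line, while Gm4814 and Cmya5 lie close to it.

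Genes that work with myospryn were examined as lists, described by counts and medians only. Of 12 partners and relatives, 9 had a count in the dC10mut pair and 8 in the tt pair. The list held 0 called genes in dC10mut over NTG and 1 in tt over control, 1 of 8 beside 4.28% of all genes. That gene, named after its value was seen, was Prkar2a, the regulatory subunit by which protein kinase A is anchored, with 23 counts in tt and 6 in control (log2 ratio 1.78, 0.52 to 3.44). Of the 8 genes in the tt pair, 7 reached 10 counts in a library of the pair. Among all genes that did, 12.8% were called, so 1 called gene says nothing about the list. In the dC10mut pair 5 list genes reached 10 counts, where 13.1% of all genes were called. Actn2, the Z-line crosslinker alpha-actinin, held 264 counts in dC10mut and 299 in NTG, and 263 in tt and 295 in control. Its log2 ratio was -0.40 (-0.65 to -0.16) in dC10mut over NTG and -0.25 (-0.49 to -0.00) in tt over control. Des, the intermediate filament desmin, held 249 in dC10mut and 204 in NTG, and 231 in tt and 292 in control. It was lower in tt than in control (log2 ratio -0.42, -0.68 to -0.17), and it has an exon opposite another gene. Ryr2, the calcium release channel that myospryn positions, held 144 counts in dC10mut and 129 in NTG, and 201 in tt and 141 in control (log2 ratio in tt over control 0.43, 0.11 to 0.75). Fsd2, the closest relative of myospryn among these, held 58 in dC10mut and 34 in NTG, and 52 in tt and 29 in control (log2 ratio in tt over control 0.75, 0.08 to 1.47). The calcineurin subunits Ppp3ca and Ppp3cb and their regulator Rcan1 were at 0 in all libraries. The list median was -0.06 in dC10mut over NTG, beside -0.11 over all genes, and 0.48 in tt over control, beside -0.05.

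Dyad and Z-line genes build the contact between the sarcoplasmic reticulum and the surface membrane and the anchor of the thin filaments. Of 15 genes listed under that name, 9 stayed under 10 counts in all libraries. The list also holds Myh6, a myosin heavy chain that is neither, with 1 count in tt and 0 elsewhere. It enters the numbers and the median of the tt pair. Of the 9 genes with a count in the dC10mut pair 1 was called, beside 4.33% of all genes, and of the 8 in the tt pair 1 was called, beside 4.28%. They were Cav3, muscle caveolin, in dC10mut over NTG (16 counts in dC10mut and 4 in NTG) and Nexn, an actin-binding Z-line protein, in tt over control (25 counts in tt and 6 in control, log2 ratio 1.89, 0.66 to 3.55), both called higher and both named after their values were seen. In each pair 5 list genes reached 10 counts in a library of the pair. Among all genes that did, 13.1% were called in dC10mut over NTG and 12.8% in tt over control. Tcap, which caps titin at the Z-line, held 393 counts in dC10mut and 323 in NTG, and 256 in tt and 306 in control. Trdn, the triadin of the release complex, held 109 in dC10mut and 92 in NTG, and 112 in tt and 129 in control. The list median was 0.02 in dC10mut over NTG, beside -0.11 over all genes, and -0.27 in tt over control, beside -0.05.

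The factors Mef2a and Mef2c were at 0 in all libraries, and Mef2d held 1 count in NTG. Of the 10 genes of the MEF2 list, 8 had a count in the dC10mut pair, 6 in the tt pair and 8 in control and NTG. In each comparison 1 was called, beside 4.33%, 4.28% and 3.09% of all genes. In each, 6 list genes reached 10 counts in a library of the pair. Among all genes that did, 13.1%, 12.8% and 8.41% were called. Myom2, an M-band protein, was called higher in tt over control (217 counts in tt and 88 in control, log2 ratio 1.22, 0.86 to 1.59) and lower in control over NTG (88 counts in control and 165 in NTG). Klf4, a transcription factor, was called lower in dC10mut over NTG (5 counts in dC10mut and 13 in NTG). Ckm, Hspb7, a small heat shock protein, and Pgam2, the muscle phosphoglycerate mutase, were not called in any comparison. Pgam2 was lower in tt than in control, under 2-fold (log2 ratio -0.91, -1.44 to -0.42). Of the 6 list genes with at least 10 counts in the tt pair, Myom2 was the 1 with a positive ratio. The list median was -0.42 in dC10mut over NTG, beside -0.11 over all genes, and -0.56 in tt over control, beside -0.05. In control over NTG it was -0.43, beside -0.12. Of 9 tripartite motif and related genes, 6 had a count and 0 were called in the 3 comparisons, beside 4.33%, 4.28% and 3.09% of all genes. For 6 genes this says nothing about the list. Their most abundant members were Trim7 (73 counts in dC10mut and 71 in NTG, and 63 in tt and 56 in control), Trim54, a microtubule-binding protein of muscle (61 in dC10mut and 50 in NTG, and 56 in tt and 59 in control), Fsd2 (above) and Trim72, of membrane repair (49 in dC10mut and 31 in NTG, and 40 in tt and 45 in control). The rows of Trim7, Trim54 and Trim72 have an exon opposite another gene.

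Other measures also differed between the libraries. The X-inactivation locus row Tsix showed 147 counts in dC10mut, against 0 in NTG, and 159 in tt, against 0 in control. Xist, the other row of that locus, held 8 counts in dC10mut, 0 in NTG, 14 in tt and 0 in control. Whether the Tsix counts came from its own strand or the other was not tested. A difference in sex between the pools of a pair and the genotype cannot be told apart. Summed over 6 endothelial markers, counts were 229 in dC10mut and 223 in NTG, and 134 in tt and 262 in control, with Pecam1 at 0 throughout. The 6 fibroblast markers summed to 27 in dC10mut and 39 in NTG, and 29 in tt and 58 in control, with Postn at 0. The 4 macrophage markers, mostly Lyz2, summed to 35 in dC10mut and 10 in NTG, and 9 in tt and 33 in control, with Adgre1 at 0. The 5 smooth muscle and pericyte markers summed to 170 in dC10mut and 99 in NTG, and 129 in tt and 155 in control, with Myh11 and Pdgfrb at 0. Of the 4 atrial markers only Nppa, the atrial natriuretic peptide gene, had counts, with 22 in dC10mut and 9 in NTG, and 16 in tt and 60 in control. Of the 7 skeletal muscle markers only Ckm had counts, with 432 in dC10mut and 342 in NTG, and 290 in tt and 309 in control. The 12 heart muscle markers summed to 7092 in dC10mut and 4938 in NTG, and 5389 in tt and 5617 in control. Every marker group with counts thus had a lower raw sum in tt than in control. The heart muscle markers went both ways there: of 7 with at least 10 counts in the pair, 3 had a positive log2 ratio. Among them Mybpc3 was higher in tt (0.55, 0.32 to 0.78) and so was Ryr2 (0.43, 0.11 to 0.75). Tnnc1 (-0.65, -0.84 to -0.47) and Tnni3 (-0.32, -0.46 to -0.18) were lower. In the other pair the raw macrophage, atrial, smooth muscle, skeletal muscle and heart muscle sums were higher in dC10mut than in NTG. The TMM-scaled library size was also larger in dC10mut (187270) than in NTG (160390). After scaling, Ckm, which makes up the skeletal muscle sum, had a log2 ratio of 0.11 (-0.09 to 0.32), which includes equality. The fibroblast sum was lower in dC10mut, and the raw endothelial sums lay near each other. Most endothelial counts were of Fabp4, with 184 in dC10mut and 154 in NTG (log2 ratio 0.03, -0.28 to 0.35). Cdh5 was lower in dC10mut, with 24 counts against 39 in NTG (-0.91, -1.72 to -0.15). Kdr held 18 in dC10mut and 23 in NTG (-0.56, -1.55 to 0.38), and Tie1 held 3 and 7. The part of these measures in the values of A630019I02Rik was not tested. In whole hearts fewer cells of a type and less RNA per cell cannot be told apart.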

How the data were processed

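Poly(A) RNA of pooled hearts was sequenced with a strand-specific kit, per the labels' protocols. STAR, HTSeq and the build mm10 are named in the submitters' processing notes; their versions, the counting mode and the use of strand are not stated there. The authors deposited unnormalized whole-number read counts for each RefSeq transcript. Of 41449 transcript rows, 41252 matched a symbol, the other 197 kept their identifier, and counts were summed per gene (25044 genes, 9344 with a count). Positions and exons came from GENCODE M21 (GRCm38), matched by symbol for 24058 genes. Library totals were between 170543 and 187365.

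Counts were scaled with TMM factors (edgeR 4.0.16, R 4.3.3) over the 4 libraries. For log2 ratios, 0.5 was added to each count in proportion to library size, with the exact Clopper-Pearson conditional binomial interval at 95%; levels have exact Poisson intervals. With 1 library per group no test was made. A call needed at least 2-fold and an interval excluding equality. Intervals cover counting error only, since each group has 1 library. Copied reads are not independent molecules, so the intervals may be too narrow even for that error.

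The members, lists and comparisons were chosen with earlier results of these data known. Named besides the members were the 5 genes closest to each in pattern, genes within 500 kb with at least 10 counts, up to 4 members per list by counts, and the 5 opposite-strand pairs with the most counts and the 5 with the largest ratio of tt over control (at least 50 counts). One of these genes is not reported here. Alternatives were library totals, DESeq2 1.42.0 size factors, other gene sets for TMM, a prior count of 2 and a minimum of 10 counts.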

Additional observations from a re-analysis of the deposited data

How the results depend on the processing

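The members' log2 ratios kept their calls under all 7 alternatives tried for each: library totals, DESeq2 size factors, TMM over genes without an opposite-strand exon, TMM over genes with at least 10 counts, TMM of the pair alone, a prior count of 2, and the row with the most counts alone, which changes nothing here since each member is 1 row. The ratio of A630019I02Rik ranged from 1.09 to 1.29 in dC10mut over NTG, from 4.07 to 4.12 in tt over control and from -2.07 to -1.84 in control over NTG. That of Cmya5 ranged from -0.11 to 0.09, so its sign in dC10mut over NTG depends on the scaling, from 0.78 to 0.82 in tt over control, and from -0.52 to -0.29 in control over NTG. Library totals shifted the median log2 ratio of genes with at least 50 counts by 0.13 in control over NTG and by 0.09 in dC10mut over NTG. The numbers of called genes, 348, 353 and 252 in dC10mut over NTG, tt over control and control over NTG, stayed within 1.5 times under library totals, DESeq2 size factors, a prior count of 2 and a minimum of 10 counts. No paired analysis was possible because each group has 1 library and the labels give no replicate numbers. Many list genes held fewer than 10 counts, where only large differences could pass. Of the list and marker genes, 15 of 46 with 1 transcript row and 39 of 45 with 2 or more stayed under 10 counts in all libraries; the cause was not tested.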
